A study of Mus musculus with 6 samples.

Results

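Expression of the Mediator complex was described in keratinocytes of the epidermis, which make up most of the outer skin, with and without its subunit Med1. Members were the genes of a list of 33 Mediator subunits, 31 of which had at least 1 probe on the array among 16593 named genes. Med14 and Med12l had no probe under these names. These 31 genes had 48 of the 25697 probes, and 26 genes (34 probes) were detected well enough to be tested, among 7461 tested genes. In Med1 KO mice (MED1 fl/fl, K14 driven Cre) Cre, driven by the keratin 14 promoter, had removed floxed exons of Med1. This promoter is active in basal keratinocytes and in hair follicle cells. Controls (CON) were Cre-negative littermates with the same MED1 fl/fl alleles, and all mice had the C57BL6 background and an age of 10 wk. The labels list 3 KO and 3 CON arrays, the design text gives keratinocytes of 2 mice for each group, and the study's text states another sample number, a difference that could not be settled here. Which arrays share a mouse is not given, so the p-values, errors and intervals rest only on the spread between these arrays, part of which may be technical. By the study's account, KO skin had shifted towards the growth phase of the hair cycle and CON skin was resting, so hair cycle phase and genotype cannot be told apart.

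Mediator carries signals from transcription factors bound at enhancers to RNA polymerase II at promoters. The head and middle modules contact the polymerase and the general factors, the tail binds many activators, and MED14 is the scaffold that holds these parts together. A separate kinase module (CDK8 or CDK19, cyclin C, MED12 and MED13, or their paralogs) joins and leaves the complex and blocks the polymerase's access while bound. MED1, of the middle module, is the main docking site of nuclear receptors, among them the vitamin D receptor of keratinocytes. MED27, MED28, MED29 and MED30 are grouped here with the tail, although some schemes place them in the head.

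All 6 arrays detected between 9866 and 10636 probes, and correlations within a genotype were 0.989 to 0.993 over tested probes. The labelled cell type was borne out by its markers, with Krt14 at the top of the scale on every array. At an adjusted p below 0.05, 4 of 6 tested markers of basal keratinocytes were lower in KO, against 14.7% of all tested genes. Krt14, among these 6, had the same level of 14.73 on every array. Quantile normalization gives probes of the same rank the same value, so a difference in Krt14 could not show here. Of the tested markers of cycling cells, 3 of 3 were higher, against 14.1% of all tested genes. Of 4 tested suprabasal markers, 1 (Ivl) was higher and 0 were lower. Other cells were also present. The mean level of 5 T cell markers was 8.78 to 8.86 in KO and 8.27 to 8.46 in CON, that of 5 Langerhans cell markers 7.81 to 7.92 in KO and 8.28 to 8.42 in CON, and that of 6 melanocyte markers 5.44 to 5.48 in KO and 6.002 to 6.142 in CON (log2). Of 6 fibroblast markers, Dcn alone was tested and was 2.35-fold lower in KO (change -1.23, adjusted p = 0.00085), while Col1a1, Col1a2, Col3a1, Lum and Pdgfra were not detected on any array. Of 4 endothelial markers, Pecam1 and Cdh5 were not detected on any array and Kdr on too few arrays to be tested. Tek was tested and had a mean level of 5.24 in both KO and CON. The part of these shifts in cell makeup in the values of Mediator genes was not tested. In such bulk samples, fewer cells of a type and less RNA per cell cannot be told apart.

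Promoter sequence was one feature that many members shared. RefSeq windows (build GRCm38.p6) of 300 bases, with 250 before and 50 after the transcription start, were at hand for 28 of the 33 genes, in 32 windows, some of which overlap. None was at hand for Med8, Med23, Med24, Med30 and Cdk19. The letters CCGGAA, the core bound by ETS factors, were present on either strand in 16 of the 32 windows (50%), against 14.9% of all 32851 windows. GGGCGG, the GC box, was present in 62.5% of Mediator windows and 35.7% of all windows, and GCGCATG, part of the NRF1 motif, in 18.8% and 3.91%. The 6 Mediator windows with GCGCATG belonged to only 4 of the 28 genes, since overlapping windows of the same gene count separately. CCAAT was equally common in both, at 37.5% and 37.4%, and TATAAA was present in 9.38% and 13.6%. Windows of Mediator genes also had more G and C, with a median of 57.8% against 52.7% over all windows. All windows include those of genes not tested on these arrays. The part of base composition, or of being expressed here, in these shares was not tested. AAGATGG (part of the YY1 motif) and CACGTG (the E-box) were each in 12.5% of Mediator windows, against 6.34% and 7.15% of all windows.

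4 of these windows were picked to be shown: Med1, which was excised, Med26 of the middle module, Med15 of the tail, whose probes differed, and Ccnc of the kinase module. They lie at chr11:98192857-98193156 (minus strand), chr8:72548261-72548560 (minus strand), chr16:17722851-17723150 (minus strand) and chr4:21727451-21727750 (plus strand). Capitals mark any match, on either strand, to the 7 motifs named above, and neighbouring matches may touch or overlap. Each sequence reads 5′ to 3′ towards the gene.
Med1: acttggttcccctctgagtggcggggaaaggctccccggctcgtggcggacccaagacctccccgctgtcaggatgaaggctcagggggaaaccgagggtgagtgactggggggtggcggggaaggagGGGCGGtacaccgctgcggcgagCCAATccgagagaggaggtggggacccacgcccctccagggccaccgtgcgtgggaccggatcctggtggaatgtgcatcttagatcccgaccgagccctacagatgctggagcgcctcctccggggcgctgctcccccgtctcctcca
Med26: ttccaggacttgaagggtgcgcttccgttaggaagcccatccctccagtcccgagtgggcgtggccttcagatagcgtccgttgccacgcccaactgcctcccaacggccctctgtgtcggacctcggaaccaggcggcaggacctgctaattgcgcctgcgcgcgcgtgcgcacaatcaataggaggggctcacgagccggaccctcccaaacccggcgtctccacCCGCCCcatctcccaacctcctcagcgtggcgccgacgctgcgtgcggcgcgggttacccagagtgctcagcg
Med15: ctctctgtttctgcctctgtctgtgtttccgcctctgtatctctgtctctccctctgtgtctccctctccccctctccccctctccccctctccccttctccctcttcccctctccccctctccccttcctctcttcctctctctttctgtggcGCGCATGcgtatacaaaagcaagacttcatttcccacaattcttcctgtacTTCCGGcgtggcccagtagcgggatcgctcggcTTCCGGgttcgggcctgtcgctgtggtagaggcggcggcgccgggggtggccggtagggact
Ccnc: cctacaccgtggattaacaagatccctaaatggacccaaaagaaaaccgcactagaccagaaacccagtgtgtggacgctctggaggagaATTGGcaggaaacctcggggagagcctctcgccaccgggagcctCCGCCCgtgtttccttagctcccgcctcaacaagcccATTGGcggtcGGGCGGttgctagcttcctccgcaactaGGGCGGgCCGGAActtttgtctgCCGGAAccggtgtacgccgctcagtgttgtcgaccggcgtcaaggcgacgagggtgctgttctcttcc
The Med1 window held 1 GC box and 1 CCAAT and no ETS core, and that of Med26 held 1 GC box alone. The Med15 window held 2 ETS cores and 1 NRF1 part, and that of Ccnc 2 ETS cores, 3 GC boxes and 2 CCAAT. These matches describe the letters of the windows only. Whether a window lies at the start that keratinocytes use, and which transcript of the gene starts there, was not tested.

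Med1, the excised gene, had the largest change of the 26 tested members. Its tested probe had log2 levels of 5.85, 5.71 and 6.13 on the KO arrays, against 7.09, 6.81 and 6.69 on the CON arrays. Every KO array lay below every CON array, and KO was 1.95-fold lower (change -0.96 ± 0.15, SE, n = 3 each, 95% interval -1.29 to -0.63, limma adjusted p = 0.0018). Each change is a log2 difference, KO minus CON, and adjusted p-values are corrected over all 10386 tested probes. The signal that stayed in KO was above background, since the probe was detected on all 3 KO arrays, with intensities of 131.3, 140.1 and 162.9, against 256.3, 197.9 and 177.3 in CON. Without background correction the change was -0.47 (adjusted p = 0.00050), so its size depends on how the background is taken off, while its direction and its call did not change in any of 18 alternatives.

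**Figure D1:**
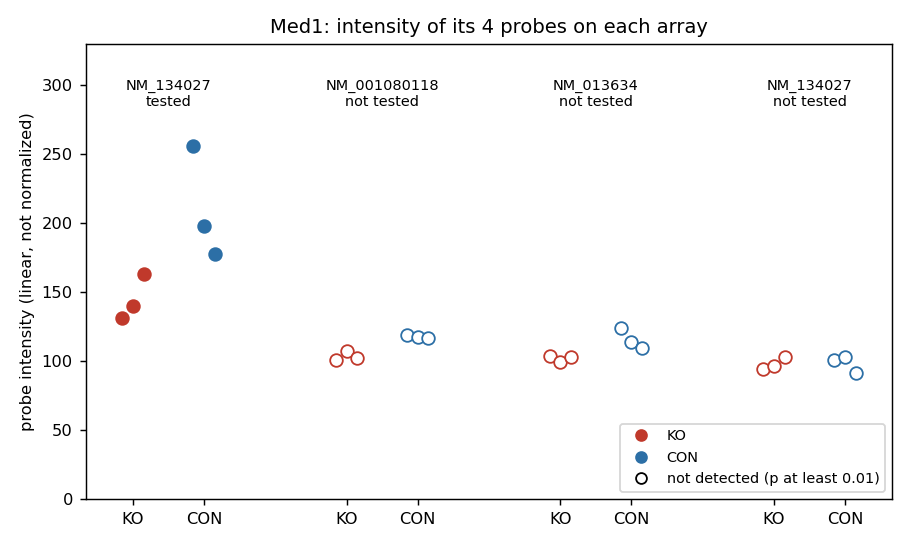
Intensity (linear, before normalization) of the 4 Med1 probes on each KO (red) and CON (blue) array, 3 per group, with the RefSeq transcript each probe is annotated to; open symbols were not detected. The tested probe lies between 131.3 and 162.9 in KO and between 177.3 and 256.3 in CON, and the other 3 probes lie near 100 on every array.

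The other 3 Med1 probes were not well above background on any array, and no change is given for them. The probe annotated to NM_001080118 had intensities of 101.1, 107.6 and 102.4 in KO, against 119.1, 117.7 and 116.8 in CON, with detection p between 0.016 and 0.050 in CON and between 0.20 and 0.46 in KO. That annotated to NM_013634 had 103.8, 99.1 and 103.3 in KO, against 124.0, 113.9 and 109.3 in CON. In both, the KO arrays were the dimmer ones and did not overlap with CON, but the values lie in the range of the negative control beads. The last, annotated to NM_134027 like the tested probe, overlapped between the groups (94.5 to 103.2 in KO and 91.0 to 103.3 in CON). The position of the 4 probes against the floxed exons was not known, so none of them checks the deletion. T cells, Langerhans cells and melanocytes, whose markers were detected as given above, do not normally use the keratin 14 promoter, and their part in the Med1 signal of KO arrays was not tested.

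Outside Med1, no tested Mediator gene changed by 1.5-fold or more. By the brightest tested probe of each gene, 0 of 26 members were higher and 2 were lower in KO (Med1 and Med23), against 14.1% higher and 14.7% lower among all tested genes. At an unadjusted limma p below 0.05, 4 were higher and 4 were lower, against 1507 and 1494 of all 7461 tested genes. The methods' t-test called 0 higher and 2 lower (Med1 and Med26) after Benjamini-Hochberg adjustment, and 20.1% of all tested genes. In the main limma fit, the called share of members was 7.69%, against 28.8% over all tested genes. This share depends on the processing, since 6 of 26 members (23.1%) were called on the authors' normalized values or without background correction, against 33.4% of all tested genes. Only 1 member, Med1, changed by at least 1.5-fold, as did 14.2% of all tested genes. For 23 of the other 25 members, the 95% interval of the brightest probe lay wholly within a 1.5-fold change in either direction. So did that of 4500 of all 7461 tested genes. The exceptions among these members were Med9 (interval -0.03 to 0.77) and Med23 (-0.64 to -0.11). Intervals of dimmer tested probes of Med8 (0.19 to 0.80), Med15 (-0.65 to -0.13) and Med25 (-0.26 to 0.60 and -0.84 to 0.50) also reached past 1.5-fold. The median change was 0.04 with and 0.05 without Med1, against -0.002 over all tested genes, and the median absolute change was 0.17 for members and 0.22 for all tested genes. Averaged over the 25 members other than Med1, the level was 8.44, 8.43 and 8.46 on the KO arrays, against 8.40 on each of the 3 CON arrays. KO and CON arrays did not overlap for 5 members that were higher in KO and 7 that were lower, of 26, against 22.7% and 22.5% of all tested genes.

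**Figure D2:**
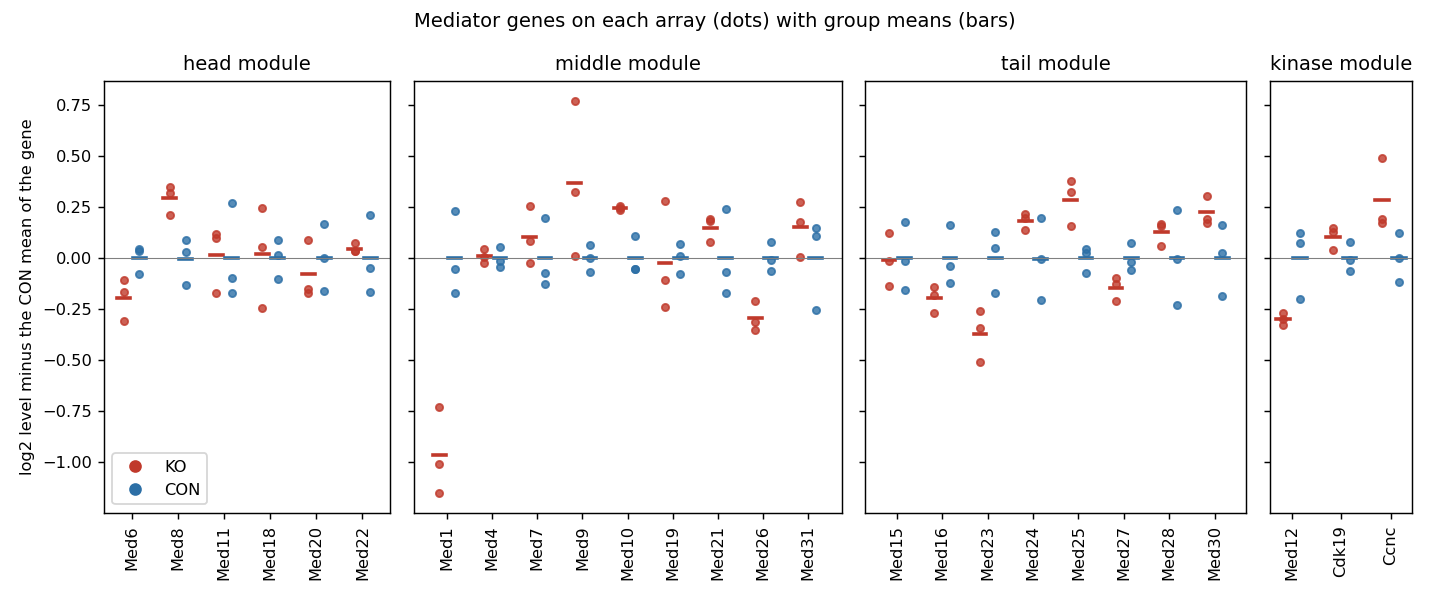
Log2 level of each tested Mediator gene (brightest probe) on each array, minus the gene's CON mean, by module; dots are the 3 KO (red, left) and 3 CON (blue, right) arrays and bars are group means. Med1 stands alone below -0.7 in KO, while the KO means of the other 25 genes lie between -0.37 and 0.37.

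Of the head, the module that contacts RNA polymerase II most directly, 6 of 7 genes were tested and 0 passed the threshold (median change 0.02). Changes ran between -0.19 (Med6) and 0.29 (Med8). Med8, a subunit of the head's movable jaw region, had 2 tested probes that differed in call. Its brighter probe, annotated to NM_020000, had levels of 9.38, 9.52 and 9.49 in KO, against 9.04, 9.26 and 9.20 in CON, a change of 0.29 ± 0.10 (adjusted p = 0.065). Its second probe, annotated to NM_173719, had 8.26, 8.40 and 8.38 in KO, against 7.66, 8.13 and 7.77 in CON, and was 1.41-fold higher (change 0.49 ± 0.13, adjusted p = 0.025). On both probes all KO arrays lay above all CON arrays. The brighter probe also passed the threshold in 4 of 18 alternatives (adjusted p 0.019 to 0.037), and the second failed it in 6 of 18. Its call ended without KO replicate 2 (adjusted p = 0.079) or 3 (0.071), without CON replicate 1 (0.070) or 3 (0.072), with median scaling (0.087) and with the methods' t-test (0.10).

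Med6, a head subunit at the border to the middle module, had levels of 8.97, 9.11 and 9.17 in KO, against 9.31, 9.20 and 9.32 in CON. These did not overlap, but the change of -0.19 ± 0.10 did not pass the test (adjusted p = 0.19). Med18 and Med20, the partners of Med8 in the movable jaw, and Med11 and Med22, which pair with each other in the head, had changes between -0.08 and 0.05. The widest of their intervals was that of Med11 (-0.31 to 0.34). Med11 and Med22 each had a second tested probe, with changes of -0.11 and -0.14 that did not pass either. Med17, the structural core of the head, had 1 probe, which was not well above background on any array.

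In the middle module all 9 genes were tested, and Med1 alone passed. Med26, which recruits elongation factors to the complex, came next to the threshold. It had levels of 8.27, 8.37 and 8.23 in KO, against 8.66, 8.57 and 8.52 in CON. The KO arrays were all the lower ones (change -0.29 ± 0.09, interval -0.51 to -0.07, adjusted p = 0.051), and the gene was called lower in 6 of 18 alternatives. Med10, which in yeast forms the hook of the middle module with Med14 and Med19, had 8.06, 8.05 and 8.07 in KO, against 7.76, 7.76 and 7.92 in CON. Its change of 0.25 ± 0.09, in the other direction, did not pass (adjusted p = 0.087). Med9 had the most uneven KO arrays of the module, at 6.09, 5.78 and 6.54, against 5.77, 5.83 and 5.70 in CON. Its change of 0.37 ± 0.18 did not pass (adjusted p = 0.16) and rested on single KO arrays, at 0.54 (adjusted p = 0.043) without KO replicate 2 and 0.16 (adjusted p = 0.42) without KO replicate 3. Med7 and Med21, which in yeast form the module's flexible hinge, had changes of 0.10 and 0.15, and Med31, which binds Med7, had 0.15. Med4 (change 0.01, interval -0.20 to 0.21) and Med19 (-0.03) differed least. Without Med1, 6 of the 8 changes were above 0, against 3714 of all 7461 tested genes, and the median was 0.13.

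**Figure D3:**
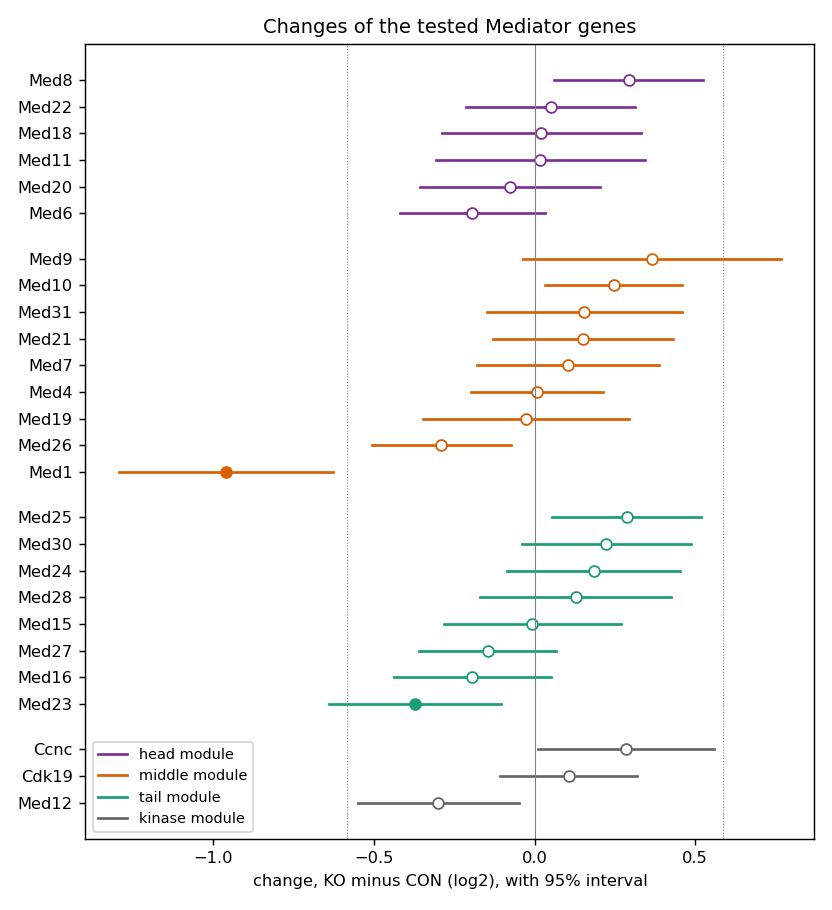
Change of each tested Mediator gene (KO minus CON, log2, points) with its 95% interval (lines), by module and in order of change; filled points passed an adjusted p of 0.05 and dotted lines mark a 1.5-fold change. Med1 (-0.96) and Med23 (-0.37) alone are filled, and 23 intervals lie between the dotted lines, all but those of Med1, Med23 and Med9.

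Of the tail, 8 of 9 genes were tested, and 1 was lower (median change of the module 0.06, or -0.01 with MED27 to MED30 counted to the head). Med23, a docking site of the ERK-activated factor ELK1, had levels of 7.54, 7.79 and 7.71 in KO, against 8.18, 8.10 and 7.88 in CON. It was 1.29-fold lower (change -0.37 ± 0.12, adjusted p = 0.045) with no overlap between the groups. A second Med23 probe had 5.35, 5.68 and 5.47 in KO, against 5.77, 5.77 and 5.45 in CON, which overlapped (change -0.16 ± 0.13, adjusted p = 0.40). In 11 of 18 alternatives Med23 was no longer called, among them leaving out any array but CON replicate 3 (adjusted p 0.067 to 0.14), blocking on the replicate number (0.073) and median scaling (0.17). Med16 and Med24, neighbours of MED23 in the tail, had changes of -0.19 ± 0.11 and 0.18 ± 0.12, of opposite sign, and neither passed.

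Med25, a target of the viral activator VP16 and of several cellular activators, had levels of 10.28, 10.33 and 10.11 in KO, against 10.00, 9.88 and 9.98 in CON. KO lay above CON on all arrays, and the change of 0.29 ± 0.10 did not pass (adjusted p = 0.068), although it did in 4 of 18 alternatives. Its 2 dimmer tested probes had changes of 0.17 ± 0.19 and -0.17 ± 0.29, and 1 more probe was not well above background. Med30 had a change of 0.22 ± 0.11 and Med27 and Med28 of -0.15 and 0.13, none of which passed. The 1 probe of Med29 was not well above background on any array.

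Med15, through which SREBP and SMAD factors reach Mediator, had 3 tested probes that differed in call. The probe annotated to NM_001040683 had levels of 8.10, 8.25 and 7.99 in KO, against 8.42, 8.45 and 8.65 in CON. The KO arrays were lower without overlap, and the probe was 1.31-fold lower (change -0.39 ± 0.11, adjusted p = 0.032). The brightest probe, annotated to NM_033609, had 8.51, 8.39 and 8.65 in KO, against 8.51, 8.70 and 8.37 in CON. These overlapped throughout (change -0.01 ± 0.12, interval -0.28 to 0.27), as did a dim further probe annotated to the same transcript (-0.09 ± 0.15). The gap between the brightest and the second probe was 0.41, 0.14 and 0.66 in KO, against 0.09, 0.25 and -0.28 in CON. The groups of gaps overlapped, and the difference between the changes of both probes was 0.38 (exact permutation test, two-sided, p = 0.20, in a design that allows no less than 0.10 and so cannot pass 0.05). The call of the second probe ended in 9 of 18 alternatives, among them blocking on the replicate number (adjusted p = 0.063), testing all probes (0.053) and leaving out KO replicate 1 or 3 or CON replicate 2 or 3 (0.051 to 0.11).

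**Figure D4:**
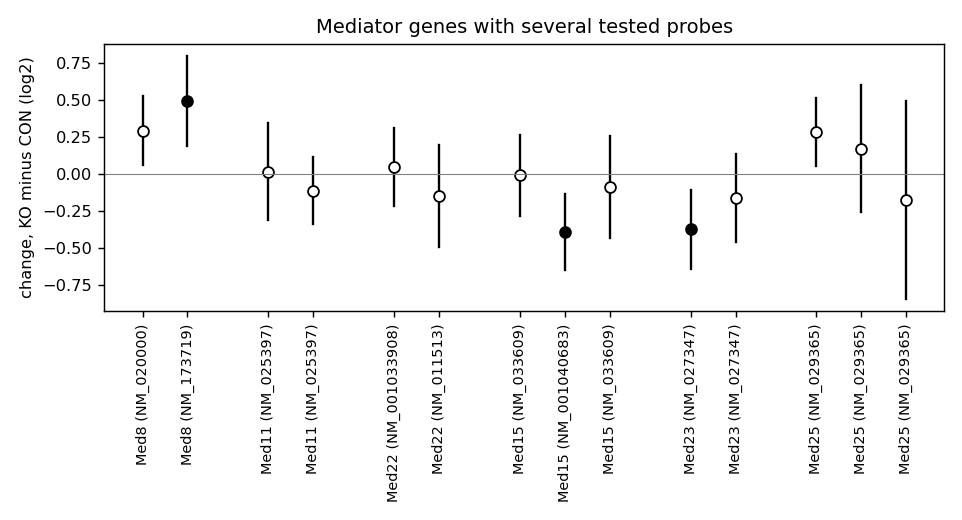
Change (KO minus CON, log2) with its 95% interval for each tested probe of the 6 Mediator genes with several tested probes, labelled by gene and annotated transcript; filled points passed an adjusted p of 0.05. In Med8, Med15 and Med23 a filled probe stands beside open ones, and the changes of Med8 (0.29 and 0.49) and Med23 (-0.37 and -0.16) share their sign.

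Probes of a gene thus differed in call in 3 of the 6 members with several tested probes, Med8, Med15 and Med23, against 23.9% of the 1780 such genes on the array. Over the 10 pairs of tested probes of 1 member, the gap between the probes separated KO from CON arrays in 3 pairs, of Med8, Med15 and Med23, against 15.5% of the 2998 such pairs on the array. The smallest p that the exact test allows is 0.10, so none of these pairs could pass.

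Of the kinase module 3 of 7 genes were tested and 0 passed, with changes in both directions. Med12, which activates the kinase, had levels of 8.34, 8.37 and 8.40 in KO, against 8.47, 8.74 and 8.79 in CON, and the groups did not overlap. Its change of -0.30 ± 0.11 missed the threshold (adjusted p = 0.076) and passed it in 5 of 18 alternatives. Ccnc, the cyclin partner of the kinases, had 7.87, 7.55 and 7.57 in KO, against 7.38, 7.26 and 7.50 in CON. All KO arrays lay above all CON arrays (change 0.28 ± 0.12), and the difference did not pass either (adjusted p = 0.12, and 0.084 to 0.36 over the alternatives). A second Ccnc probe was not well above background.

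The paralogs of the module were unequally measured. Cdk19 had levels of 10.08, 10.10 and 9.99 in KO, against 10.03, 9.94 and 9.89 in CON (change 0.11 ± 0.09, interval -0.11 to 0.32). The groups overlapped, and a change of 1.5-fold lies outside the interval. Both probes of Cdk8 were not well above background on any of the 6 arrays, with intensities of 97.2 to 110.3 in KO and 95.5 to 107.7 in CON. The 1 probe of Med13, which links the kinase to the rest of the complex, was likewise at background (103.0 to 110.7 in KO and 103.5 to 108.0 in CON). That of Med13l was at the edge of detection, with 1 of 6 arrays past the threshold, 117.2, 116.2 and 122.2 in KO and 128.9, 115.8 and 123.6 in CON. A dim probe does not show that a gene is silent, since probes differ in how well they bind.

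The machinery that Mediator contacts was set beside it. Of 7 tested RNA polymerase II subunits 0 were higher and 0 lower (median change 0.07), and 0 were past an unadjusted p of 0.05. Polr2e, Polr2f and Polr2j had the smallest adjusted p, with changes of -0.24, 0.14 and 0.19. Of 10 tested subunits of TFIIE, TFIIF and TFIIH, which assemble with the polymerase at the start site, 1 was higher and 0 lower (median 0.17). This was Gtf2f2, a TFIIF subunit (change 0.43 ± 0.10, adjusted p = 0.013). Ercc3, a TFIIH helicase gene, had 0.30 ± 0.10 (adjusted p = 0.051) and Gtf2f1 0.21. The listed genes of TFIIA and TFIIB were not tested, being without a probe or not well above background. Of 9 tested genes of TFIID, the promoter recognition complex, 3 were higher and 0 lower (median 0.15), Taf10 (0.45 ± 0.09, adjusted p = 0.0062), Taf12 (0.35 ± 0.09) and Taf13 (0.51 ± 0.14).

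**Figure D5:**
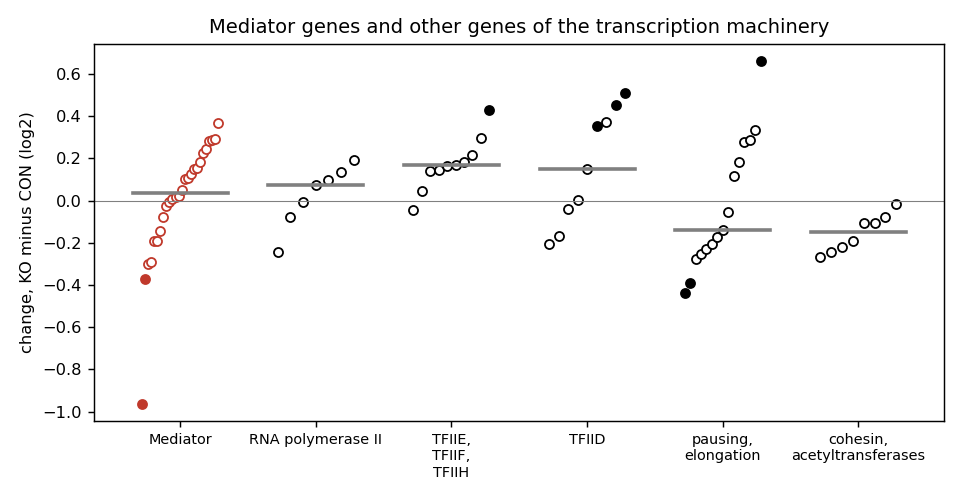
Changes (KO minus CON, log2) of the tested Mediator genes (red) and of 5 other gene lists of the transcription machinery (black), each in order of change, with list medians (grey bars); filled points passed an adjusted p of 0.05. Medians lie between -0.15 (cohesin and acetyltransferases) and 0.17 (general factors), and Mediator holds the lowest single value, Med1 at -0.96.

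Of 15 tested genes of polymerase pausing and elongation, 1 was higher and 2 were lower (median -0.14). Hexim1, an inhibitor of the elongation kinase P-TEFb, was 1.58-fold higher (change 0.66 ± 0.10, adjusted p = 0.0017). Nelfb, a subunit of the pausing factor NELF, was 1.35-fold lower (adjusted p = 0.010), and Aff1, a scaffold of the super elongation complex that MED26 recruits, 1.31-fold lower (adjusted p = 0.034). Of 8 tested genes of cohesin and the enhancer acetyltransferases, which act with Mediator at enhancers, 0 passed in either direction (1 lower at an unadjusted p below 0.05). All 8 changes were below 0 (median -0.15), as were those of 3747 of all 7461 tested genes. The smallest adjusted p was that of Nipbl, the cohesin loader (-0.24 ± 0.09, adjusted p = 0.077), followed by Ep300 (-0.22) and Stag1 (-0.27). Called shares of these lists stood at 0 of 7, 1 of 10, 3 of 9, 3 of 15 and 0 of 8, against 28.8% of all tested genes.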

How the data were processed

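Keratinocyte RNA of 3 KO and 3 CON samples was labelled with biotin and read on Illumina MouseRef-8 v2.0 beadchips (1 colour). The authors deposited a linear probe intensity for each of 25697 probes, from GenomeStudio (version 2011.1, credited to the submitters' processing notes), without normalization. The deposited detection p-value compares a probe with negative control beads on the same array. Another deposited table of intensities, normalized by the authors in GenomeStudio by a method not given in the sources used here, has the same median (110.9) in all columns and served as an alternative.

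Background was corrected and arrays were quantile normalized with neqc of limma (version 3.58.1, R 4.3.3, offset 16, log2). The offset pulls changes of dim probes towards 0, while the background correction widens them. For the dim Med1 probe, the change was -0.96 with this setting, -0.68 with offset 50 and -0.47 without background correction. Probes with a detection p below 0.01 on at least 3 of 6 arrays were tested with lmFit and eBayes, KO minus CON, no covariate, two-sided, Benjamini-Hochberg over all tested probes, threshold 0.05. Genes with several tested probes take their value from the brightest, by mean over the 6 arrays. Errors are SE of that fit, and intervals are at 95%. The number of arrays limits the precision. The fit was tested on simulated data.

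Probes were named from the platform annotation (23978 with 1 symbol, 0 with several, 1719 unnamed here), and 23962 matched the RefSeq table of GRCm38.p6 by Entrez ID, which changed 0 symbols. Promoter sequences are RefSeq's. Members and lists were chosen with earlier results of these data known. Arrays are given for Med1, members past the threshold, the 2 members per module with the smallest adjusted p, kinase paralogs and members whose probes differ in call. Those of Med9 and Med10 were chosen after their values were seen. From each other list the 3 genes with the smallest adjusted p are named. Alternatives were other normalizations, offsets, filters, moderation, array weights, the replicate block, the methods' two-tailed t-test and leaving out each array.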

Additional observations from a re-analysis of the deposited data

How the results depend on the processing

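Med1 kept its direction and its call in all 18 alternatives (change -1.07 to -0.47, adjusted p 0.00016 to 0.035), with -1.07 to -0.84 when 1 array was left out. The paper set an unadjusted cutoff of 0.005 for its pathway analysis, on values normalized in GenomeStudio. At this cutoff the methods' t-test, run on the values normalized here, called 0 members in either direction. Med1 missed the cutoff only narrowly, and its call with this t-test rests on the adjusted threshold of 0.05. The median change of tested members lay between -0.01 and 0.07. The count of members higher in KO (0) became 2, Med8 and Med25, in 4 settings. These were the authors' normalized values, no background correction, offset 50, and trended and robust moderation, with 32.1% to 34.0% of all tested genes called. With any tested probe counted, the count became 1 (Med8), against 15.4% of all tested genes higher. The count of members lower (2) became 4 in the same 4 settings, Med12 and Med26 joining Med1 and Med23. It became 3 with the stricter filter (Med26 joining, 30.5% of all tested genes called). It also became 3 if any tested probe counted (Med15 joining, 15.7% of all tested genes lower). It became 1, Med1, with median scaling (17.3% of all tested genes called), no filter (11.6%), the looser filter (18.9%), array weights (29.7%) and the replicate block (25.2%). Leaving out 1 array gave 0 to 1 higher and 1 to 2 lower, with 20.9% to 25.5% of all tested genes called. The cause was not tested. For the other 25 members and the second probes of Med8 and Med15, 440 of 486 values under the alternatives stayed on their side of the threshold, 20 newly passed it and 26 no longer did. Deviations of same-numbered KO and CON arrays correlated at -0.03, 0.07 and -0.05, and 1 of 3 KO arrays correlated best with its own number. With 3 arrays per group, this check cannot decide whether the numbers pair the arrays. The replicate block moved the called probes to 2518, against 2849. Low signal limits Cdk8, Med13, Med13l, Med17 and Med29, for which no change can be given.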
